A study of Penicillium oxalicum with 6 samples.

Results

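The complemented strain Rmtr23B of the filamentous fungus Penicillium oxalicum was compared with its parent M12 in glucose medium, to see how far gene expression in a strain given back the deleted gene mtr23B matched that of the parent. Genes entered the comparison when the table gave them an identifier beginning with PDE_ and at least 10 TPM in either library, which held for 5226 of 8902 genes. TPM here is tags per 1000000 tags of the library, with no division by gene length. The other 3676 genes were below 10 TPM in both libraries and were not compared.

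The groups were Rmtr23B-G (the mtr23B complemented strain), Dmtr23B-G (the mtr23B knockout strain, used only to place genes) and M12-G (a uracil auxotroph with the pyrG mutation pyrGQ226*, derived from the wild type 114-2). Each of these strains was pregrown at 30 °C for 20 h, after which its washed mycelia spent 24 h in fresh Vogel's medium. The carbon source was 2% glucose throughout. Expression was measured by digital gene expression tag profiling, in which a short tag next to a CATG site of each polyadenylated RNA is sequenced and counted. There was 1 library for each strain, so no difference given below has a replicate check and no test was possible. Strain, culture and library cannot be told apart. The labels do not say how mtr23B was put back, whether Rmtr23B is 1 transformant, or whether Rmtr23B and Dmtr23B carry the pyrG mutation of M12.

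Complementation asks which differences of a deletion strain go away once the deleted gene is returned. The name mtr23B marks a putative methyltransferase gene. In filamentous fungi, glucose represses many genes for the use of starch and cellulose, preferred nitrogen sources repress genes for the use of nitrate, and methyltransferases such as LaeA act on secondary metabolite clusters and conidiation. The descriptions in the table name no gene mtr23B, so its own level in the 3 strains is not analysed here.

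Identified genes held 2147854 tags in Rmtr23B-G, 2013784 in Dmtr23B-G and 2048846 in M12-G, which is 63.93%, 60.09% and 60.98% of the library totals. A value of 10 TPM stood for 33.5 to 33.6 tags, and a count of 0 allowed up to 0.893 to 0.895 TPM (3 tags). The gene with the most tags in Rmtr23B-G and M12-G was PDE_09832, which carries the GO terms for sporulation and for building the cell wall. It had 166043 TPM in Rmtr23B-G, 2796 TPM in Dmtr23B-G and 82567 TPM in M12-G, or 26.0%, 0.5% and 13.5% of the assigned tags. Its ratio of Rmtr23B-G over M12-G was 2.01 (exact 95% interval 2.00 to 2.02), and it was no longer past 2-fold with scaling to assigned tags or with quantile normalisation. All intervals here are exact binomial intervals of the ratio of 2 tag counts and cover counting error only. The glucose columns followed the identifiers, since genes for ribosomal constituents stood at a median percentile of 88.1 in M12-G.

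Most genes of the complemented strain were close to the parent, and those that were not lay more often below it. A gene was called when log2((TPM + 1)/(TPM + 1)), Rmtr23B-G over M12-G, was at least 1 or at most -1. By that rule 236 genes were higher in Rmtr23B-G (4.52% of those measured), 566 were lower (10.8%), and 4424 (84.7%) lay within 2-fold, so 15.3% were called in either direction. The counting interval lay wholly beyond 2-fold for 125 of the higher genes (2.39% of those measured) and 258 of the lower ones (4.94%). The higher side held 41 genes past 4-fold and 14 past 8-fold, and the lower side held 79 and 20. The 10 TPM minimum was met in Rmtr23B-G alone for 97 of the higher genes and in M12-G alone for 208 of the lower ones. For 42 and 66 of these the other library was so low that a gene meeting the minimum had to be called.

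The median log2 difference of all measured genes was -0.14, with quartiles of -0.56 and 0.26, and 59.1% of genes had a value below 0. Class medians are best read against that value, and counts of called genes against the 4.52% higher and 10.8% lower of all measured genes. The share of called genes that were higher was 29.4% with library totals and 24.3% with scaling to assigned tags, but 43.8% when PDE_09832 was left out of the assigned tags, 44.0% with median-ratio scaling, 42.2% with TMM and 44.1% with quantile normalisation. The all-gene median was then between -0.21 and 0.03. The lower calls thus outnumbered the higher ones under all 5 alternative scalings, by a margin that depended on the scaling. Of the 76 genes reaching 1000 TPM in either library, 15.8% were higher and 23.7% lower, against 3.9% and 9.4% of the 2297 genes between 10 and 30 TPM. Just inside and outside the limits lay PDE_08652 (319 TPM in Rmtr23B-G and 158 in M12-G) and PDE_06755 (724 and 362 TPM) on the higher side, and PDE_01623 (83.9 and 169 TPM) and PDE_02987 (26.2 and 53.3 TPM) on the lower side. PDE_00447, at 10.1 TPM in Rmtr23B-G and 8.93 TPM in M12-G, just met the 10 TPM minimum, and PDE_00182, at 6.85 and 9.82 TPM, did not.

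**Figure D1:**
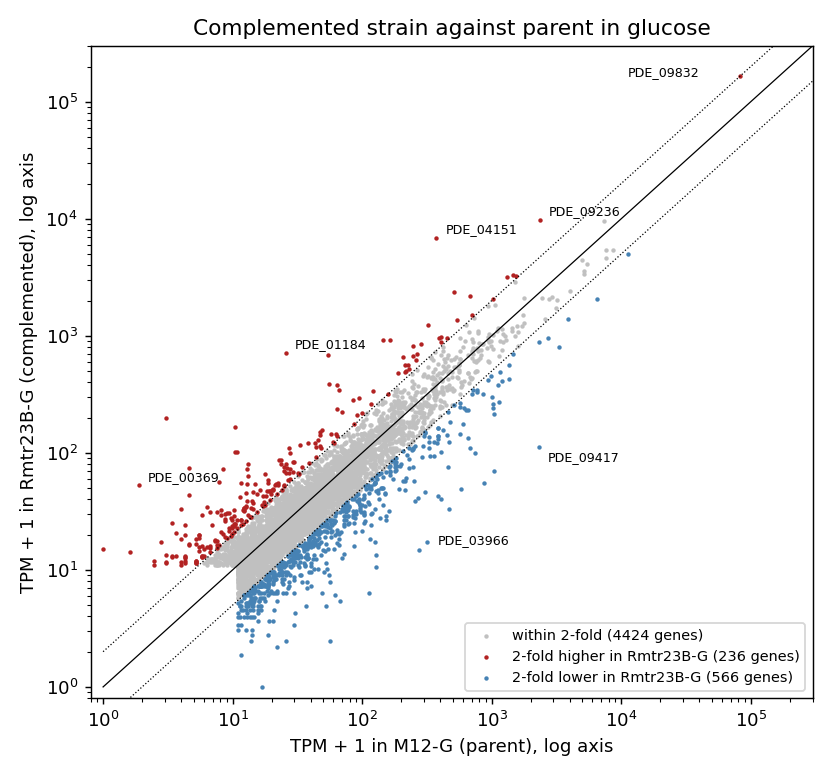
Each point is 1 of 5226 measured genes, with TPM + 1 in the parent M12-G on the x axis and in the complemented strain Rmtr23B-G on the y axis, both log axes. Solid and dotted lines mark equality and 2-fold; 236 genes (red) lay above and 566 (blue) below the 2-fold band, and 7 genes named in the text are marked.

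After complementation, genes placed as lower by the deletion strain lay outside 2-fold of the parent more often than genes placed as higher. This difference was not tested, and it was much smaller under a 3-fold rule. The deletion strain serves here only to place genes, and both comparisons share the M12-G library, so a high or low value in M12-G enters both. Dmtr23B-G was 2-fold higher than M12-G for 540 of the 5226 genes (10.3%) and 2-fold lower for 613 (11.7%). Of the 540, Rmtr23B-G lay within 2-fold of M12-G for 445 (82.4%), still 2-fold higher for 24 (4.4%, incomplete restoration), and 2-fold lower for 71 (13.1%, overshoot). Of the 613, Rmtr23B-G lay within 2-fold for 392 (63.9%), still 2-fold lower for 135 (22.0%, incomplete) and 2-fold higher for 86 (14.0%, overshoot). Over all measured genes, Rmtr23B-G was higher for 4.52% and lower for 10.8%. The 4.4% and 13.1% among genes higher in the deletion strain lay near those shares. Of the 4073 genes that lay within 2-fold in the deletion strain, 126 (3.1%) were higher and 360 (8.8%) lower in Rmtr23B-G. The 486 genes of the last 2 counts were past 2-fold of the parent in the complemented strain alone, though the deletion strain could differ by less. They were part of the 802 called genes, and the 4073 genes they come from were most of those measured. Of these 4073 genes 88.1% lay within 2-fold of the parent, against 84.7% of all measured genes. The balance of these counts depended on the scaling. With median-ratio scaling, overshoots numbered 35 among genes higher in the deletion strain and 124 among genes lower in it, and 199 genes were higher and 264 lower in the complemented strain alone. TMM, quantile normalisation and scaling without PDE_09832 moved these 4 counts the same way. With a 3-fold rule for both comparisons, Dmtr23B-G was higher for 135 genes, of which 8 were incomplete and 12 overshot. It was lower for 396 genes, of which 38 were incomplete and 29 overshot.

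The word incomplete covers several cases. Of the 135 genes still lower, 103 lay nearer to Dmtr23B-G than to M12-G on the log2 scale, 80 were within 2-fold of Dmtr23B-G, and 43 were lower than in Dmtr23B-G itself. Their median log2 difference was -1.48 for Rmtr23B-G over M12-G and -1.95 for Dmtr23B-G over M12-G. Of the 24 genes still higher, 22 lay nearer to Dmtr23B-G, 18 were within 2-fold of it and 12 exceeded it, with medians of 1.47 and 1.53. The overshooting genes had a median of -1.42 where the deletion strain was higher (11 of 71 past 4-fold) and 1.51 where it was lower (18 of 86 past 4-fold).

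**Figure D2:**
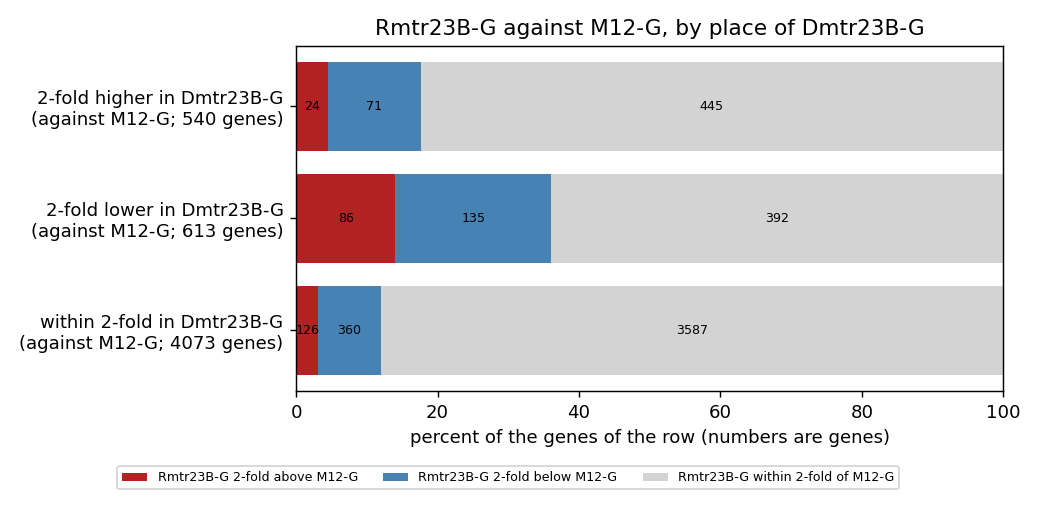
Bars show the percent of genes in which Rmtr23B-G was 2-fold above (red), 2-fold below (blue) or within 2-fold of M12-G (grey), for genes placed by Dmtr23B-G against M12-G, with gene numbers inside. The grey share is 82.4% where the deletion strain was higher, 63.9% where it was lower and 88.1% where it was within 2-fold.

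Described genes of nitrate and ammonium assimilation, nitrate reductase among them, were higher in the complemented strain than in the parent. Nitrate reductase (PDE_00369), which reduces nitrate to nitrite, had 52.1 TPM in Rmtr23B-G, 0 in Dmtr23B-G and 0.890 in M12-G, from 175, 0 and 3 tags, a ratio to M12-G of 58.3 (19.6 to 286). Its neighbour by locus number, PDE_00370, annotated with nitrite reductase activity, had 73.5 TPM in Rmtr23B-G, 2.09 in Dmtr23B-G and 3.57 in M12-G (20.6-fold, 11.6 to 40.4). Outside the complemented strain neither gene had more than 12 tags in a library, and both met the 10 TPM minimum through Rmtr23B-G alone, so they had to be called higher.

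The enzymes that build glutamate and glutamine from ammonium showed a smaller difference. Glutamine synthetase (PDE_08346) had 66.7 TPM in Rmtr23B-G, 51.9 in Dmtr23B-G and 25.0 in M12-G (2.67-fold, 2.07 to 3.47). Glutamate synthase (PDE_02386) had 58.9, 28.1 and 26.8 TPM in the same order of libraries. Glutamate dehydrogenase gdhA (PDE_06117) had 79.5 TPM in Rmtr23B-G and 266 TPM in Dmtr23B-G, against 25.0 TPM in M12-G, so that it lay between deletion strain and parent. Of the 5 measured genes of the list for nitrogen use, 4 were higher and 0 lower, with a median log2 difference of 1.38. Nitrate reductase, which could only be called higher, is 1 of the 4 and counts in that median, while PDE_00370 has no product name matching the list. The allantoate permease PDE_07892 was the member within 2-fold, at 36.3 TPM in Rmtr23B-G, 96.7 in Dmtr23B-G and 60.4 in M12-G. In the wider KEGG class Nitrogen metabolism 7 of 33 genes were higher and 5 lower, with a median of -0.21.

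Of 9 listed permeases for amino acids and peptides, 4 were below the parent although the deletion strain was above it. The general amino acid permease Gap1 (PDE_00845), which takes up amino acids as a nitrogen source, had 3.27 TPM in Rmtr23B-G and 767 TPM in Dmtr23B-G, against 29.5 TPM in M12-G, 9.00-fold lower than the parent (4.82 to 18.6). The oligopeptide transporter PDE_06899 had 1.19 TPM in Rmtr23B-G, 94.9 in Dmtr23B-G and 21.1 in M12-G (17.8-fold lower, 6.64 to 66.9). The neutral amino acid permease PDE_02763 had 68.8, 485 and 163 TPM and the amino acid permease PDE_02398 had 10.4, 46.9 and 22.9 TPM in that order. All 4 are overshoots, and the first pair met the minimum in M12-G alone at values that had to be called lower. None of the 9 was higher. The list's median was -0.79, and the summed level was 514 TPM in Rmtr23B-G, 1739 in Dmtr23B-G and 677 in M12-G. In the GO class amino acid transmembrane transport 5 of 21 genes were lower and 0 higher, with a median of -0.19, close to that of all genes. Of its 9 genes that were higher in the deletion strain 3 were overshoots, against 13.1% of all 540 such genes.

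PDE_01184, described as similar to glutamate decarboxylase, an enzyme that makes 4-aminobutyrate from glutamate, stood out among the overshooting genes. It had 710 TPM in Rmtr23B-G, 0 TPM in Dmtr23B-G and 24.7 TPM in M12-G, a ratio to the parent of 28.7 (23.1 to 36.2). The GABA permease PDE_02073, for the product of such enzymes, lay within 2-fold at 340 TPM in Rmtr23B-G, 182 in Dmtr23B-G and 352 in M12-G.

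Of 8 listed starch-degrading enzymes, 5 were below the parent in the complemented strain. The putative glucan 1,4-alpha-glucosidase PDE_09417 (glucoamylase, which frees glucose from the ends of starch chains) had 112 TPM in Rmtr23B-G, 792 in Dmtr23B-G and 2314 in M12-G, 20.6-fold lower than the parent (18.6 to 22.9). The alpha-amylase PDE_01201, which cuts inside the chains, had 68.8, 471 and 1035 TPM in the same order (15.0-fold lower, 13.2 to 17.3). For these genes the complemented strain lay below the deletion strain as well, so that its values were the furthest from the parent.

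The alpha-glucosidases PDE_03966 and PDE_00400 were also lower. PDE_03966 had 16.4 TPM in Rmtr23B-G, 511 in Dmtr23B-G and 317 in M12-G (19.4-fold lower, 14.8 to 25.9). PDE_00400 had 25.9, 136 and 152 TPM in that order, and a further glucoamylase, PDE_05527, had 16.1, 135 and 62.5 TPM. Of the 8 measured genes of the list 1 was higher, the maltase-like PDE_04454, and the median was -2.20, the lowest of the 24 lists. The summed level was 647 TPM in Rmtr23B-G, 2248 in Dmtr23B-G and 4060 in M12-G. The list leaves out PDE_04151 and PDE_04152, described only as maltases. PDE_04151 alone had 6793 TPM in Rmtr23B-G against 373 in M12-G, so the direction of the summed level depends on its exclusion. Under the 5 other scalings the list's median lay between -2.26 and -2.02.

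The 3 genes described as maltases, which split maltose to glucose, were higher instead. PDE_04151 had 6793 TPM in Rmtr23B-G and 1547 TPM in Dmtr23B-G, against 373 TPM in M12-G, 18.2-fold above the parent (17.2 to 19.3) and above the deletion strain. PDE_04152, the next locus number, had 101, 22.1 and 9.52 TPM in the same order (10.6-fold, 7.34 to 15.7). The sugar transporter PDE_04150 beside them had 151 TPM in Rmtr23B-G, 208 in Dmtr23B-G and 46.4 in M12-G (3.24-fold, 2.71 to 3.91).

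All 3 genes with these successive locus numbers were 2-fold higher than M12-G in Rmtr23B-G and in Dmtr23B-G, which places them under incomplete restoration. A further maltase-like alpha-glucosidase, PDE_04454, had 343 TPM in Rmtr23B-G, 47.1 in Dmtr23B-G and 64.9 in M12-G (5.29-fold, 4.58 to 6.15). It was past 2-fold of the parent in the complemented strain alone.

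**Figure D3:**
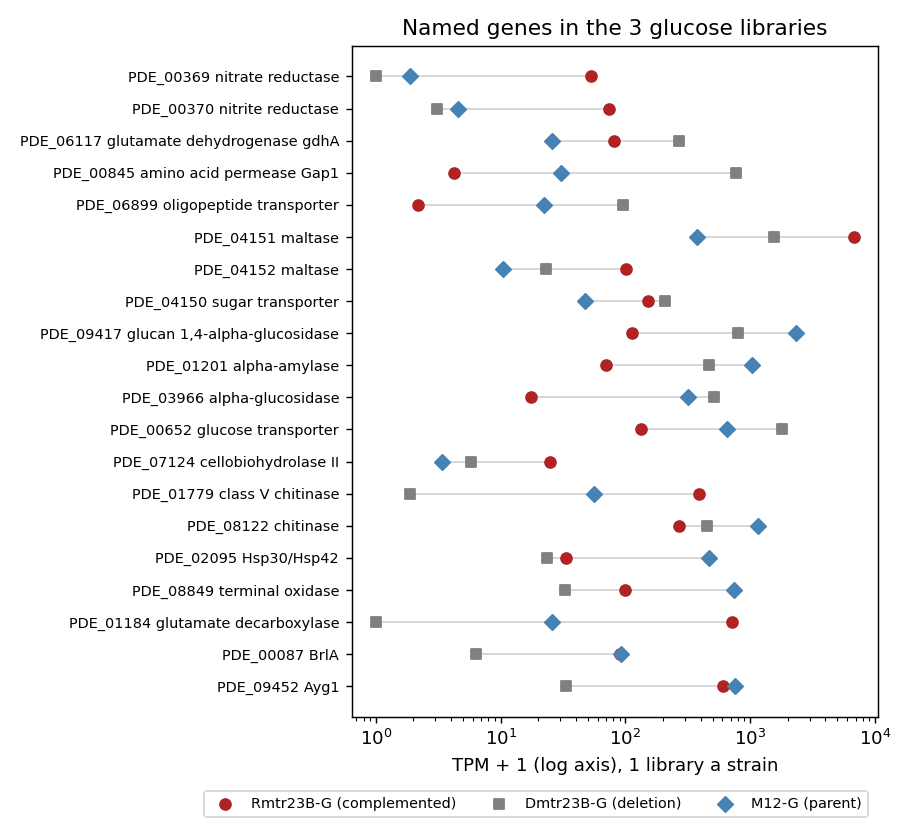
TPM + 1 (log axis) of 20 genes named in the text in the complemented strain (red circles), the deletion strain (grey squares) and the parent (blue diamonds), 1 library each. In the complemented strain nitrate reductase, both maltases, cellobiohydrolase II and glutamate decarboxylase lie right of both other strains, Gap1, glucoamylase, alpha-amylase and alpha-glucosidase lie left of both, and BrlA lies on the parent's value.

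Of 6 listed sugar transporters that were higher in the deletion strain, 3 lay below the parent after complementation, 2 were still above it and 1 was within 2-fold. Over all 540 genes higher in the deletion strain, 13.1% lay below the parent and 4.4% were still above it. The sugar transporter PDE_09377 had 964 TPM in Rmtr23B-G and 9564 TPM in Dmtr23B-G, against 2708 TPM in M12-G (2.81-fold lower, 2.70 to 2.92). The facilitated glucose transporter PDE_00652 had 132, 1809 and 657 TPM in that order (4.97-fold lower, 4.49 to 5.52), and the hexose transporter PDE_08035 had 10.7, 140 and 23.2 TPM. For these 3 overshoots the complemented strain had the lowest value of the strains.

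Those still above the parent were PDE_04150, beside the maltases, and the putative monosaccharide transporter PDE_01388, at 15.8 TPM in Rmtr23B-G, 55.2 in Dmtr23B-G and 4.17 in M12-G (3.79-fold higher, 2.07 to 7.39). PDE_01388 met the minimum through Rmtr23B-G alone and had to be called higher. The putative maltose transporter PDE_09994 was within 2-fold at 27.4, 307 and 37.8 TPM in the same order of libraries. Over the list of 14 measured sugar transporters 2 were higher and 6 lower, with a median of -0.47, and the summed level was 1482 TPM in Rmtr23B-G, 12342 in Dmtr23B-G and 3714 in M12-G. In the overlapping GO class carbohydrate transport 8 of 21 genes were lower and 3 higher, with a median of -0.68, which was among the lowest of all 319 classes. That class held 4 incomplete and 4 overshooting genes. The carboxylic acid transporter PDE_05653 had 6.85 TPM in Rmtr23B-G, 19.7 in Dmtr23B-G and 55.7 in M12-G (8.13-fold lower, 5.26 to 13.1).

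Cellulase genes were at low levels in glucose, and 5 of 12 measured members were higher in the complemented strain. Cellobiohydrolase II (PDE_07124), which releases cellobiose from cellulose ends, had 24.1 TPM in Rmtr23B-G, 4.77 in Dmtr23B-G and 2.38 in M12-G (10.1-fold, 4.90 to 24.2). The cellobiohydrolase PDE_07945 had 15.8, 1.49 and 3.57 TPM in the same order (4.42-fold, 2.33 to 9.08), and the endoglucanase PDE_09226 had 12.2, 4.48 and 2.68 TPM. A glycoside hydrolase 45 protein outside the list, PDE_07928, had 16.4 TPM in Rmtr23B-G, 1.19 in Dmtr23B-G and 1.79 in M12-G (9.17-fold, 3.95 to 26.1).

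The 5 higher members of the list met the 10 TPM minimum through the complemented strain alone. For 4 of them, and for PDE_07928, the level in M12-G was so low that they had to be called higher. The beta-glucosidase I PDE_02736, which splits cellobiose to glucose, was 2.60-fold lower (2.23 to 3.04) at 68.5 TPM in Rmtr23B-G, 282 in Dmtr23B-G and 178 in M12-G. The putative cellulase PDE_09586 was lower too. The list's median was 0.60, and the 5 higher members count in it. The summed level of the list was 365 TPM in Rmtr23B-G, 534 in Dmtr23B-G and 491 in M12-G. Of 13 measured hemicellulases and pectinases 2 were higher and 2 lower, with a median of -0.27. The exo-polygalacturonase PDE_09285, a pectin-degrading enzyme, had 5.06 TPM in Rmtr23B-G, 31.6 in Dmtr23B-G and 61.0 in M12-G (12.1-fold lower, 7.35 to 21.1).

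Enzymes acting on the fungal cell wall differed in both directions. The class V chitinase PDE_01779 had 385 TPM in Rmtr23B-G, 0.900 in Dmtr23B-G and 54.8 in M12-G (7.03-fold higher, 6.02 to 8.25), an overshoot. The chitinase PDE_08122 had 270, 453 and 1146 TPM in that order (4.24-fold lower, 3.95 to 4.57). The endo-1,3-beta-glucanase Engl1 (PDE_02862) had 45.5, 123 and 304 TPM (6.69-fold lower, 5.64 to 7.98).

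The last pair again lay below the deletion strain. Of 19 measured chitin and glucan enzymes 4 were higher and 6 lower, with a median of -0.29 that turned positive under 4 of the 5 other scalings (0.11 to 0.13). Of the 4 higher ones, 2 met the 10 TPM minimum in Rmtr23B-G alone and had to be called higher. Extracellular proteases were likewise mixed. Penicillopepsin (PDE_07927), an acid protease, had 5013 TPM in Rmtr23B-G, 697 in Dmtr23B-G and 11255 in M12-G (2.25-fold lower, 2.20 to 2.29, but within 2-fold after quantile normalisation). The aspartic protease pepA (PDE_07344) had 380 TPM in Rmtr23B-G, 568 in Dmtr23B-G and 62.8 in M12-G (6.05-fold higher, 5.22 to 7.03). Of 41 measured peptidases and related proteins 3 were higher and 3 lower, with a median of -0.19. Among these, 1 of the higher and 1 of the lower genes met the minimum in a single library and had to be called.

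Of 19 listed heat shock proteins and chaperones, which bind unfolded proteins, 4 (21.1%) were below the parent and 1 (5.3%) above it. Of all measured genes 10.8% were lower and 4.52% higher. Of the 5 listed genes that were lower in the deletion strain 3 were still lower, against 22.0% of all 613 such genes. Hsp30/Hsp42 (PDE_02095) had 32.4 TPM in Rmtr23B-G and 22.4 TPM in Dmtr23B-G, against 471 TPM in M12-G (14.5-fold lower, 11.9 to 17.8). The heat shock protein PDE_00175 had 241, 37.6 and 1016 TPM in that order (4.22-fold lower, 3.91 to 4.56), and the chaperone PDE_00624 had 29.5, 30.7 and 118 TPM. PDE_02095 and PDE_00624 lay within 2-fold of the deletion strain.

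A further heat shock protein, PDE_00987, was higher at 559 TPM in Rmtr23B-G, 332 in Dmtr23B-G and 213 in M12-G (2.62-fold, 2.40 to 2.86). Mitochondrial heat shock protein 60 (PDE_04315) was lower at 44.6, 133 and 111 TPM. In the GO class response to stress 6 of 17 genes were lower and 1 higher, with a median of -0.59 and 4 incomplete genes. The median of the 19 listed heat shock proteins and chaperones was -0.21.

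Other genes of stress and respiration followed no common direction. The cyanide-resistant terminal oxidase PDE_08849, which passes electrons to oxygen without pumping protons, had 97.9 TPM in Rmtr23B-G, 31.9 in Dmtr23B-G and 746 in M12-G (7.62-fold lower, 6.79 to 8.57). The glucose repressible protein Grg1 (PDE_08540) had 1399 TPM in Rmtr23B-G and 1695 TPM in Dmtr23B-G, against 3900 TPM in M12-G (2.79-fold lower, 2.70 to 2.88). The glutathione peroxidase Hyr1 (PDE_04919), which removes peroxides, had 814, 128 and 244 TPM in that order (3.34-fold higher, 3.09 to 3.62). Thioredoxin (PDE_01808) had 27.1 TPM in Rmtr23B-G, 86.8 in Dmtr23B-G and 83.3 in M12-G. Of 17 measured oxidative stress genes 1 was higher and 3 lower, with a median of -0.39. Of 33 genes for oxidative phosphorylation 1 was higher and 2 lower, with a median of -0.09 that changed sign with the scaling.

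Ribosomal protein genes were shifted upward as a group, although few were past 2-fold. Of 45 measured cytosolic ribosomal proteins 35 had a value above 0, 4 were 2-fold higher and 0 lower. Their median was 0.46, between 0.40 and 0.62 under the other scalings, and their summed level was 18362 TPM in Rmtr23B-G, 18576 in Dmtr23B-G and 12925 in M12-G. The 40S protein S5 (PDE_00406) had 284 TPM in Rmtr23B-G, 83.0 in Dmtr23B-G and 84.2 in M12-G (3.37-fold, 2.95 to 3.87). The proteins S25 (PDE_00106) and L12 (PDE_03005) had 1498, 400 and 709 TPM, and 963, 602 and 391 TPM, in the same order, with ratios of 2.11 and 2.46.

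L6 (PDE_00629) had 949 TPM in Rmtr23B-G, 417 in Dmtr23B-G and 454 in M12-G and was within 2-fold after scaling to assigned tags. All 4 were past 2-fold of the parent in the complemented strain alone, but the upward shift of the group was not particular to that strain. For Dmtr23B-G over M12-G the median was 0.53 for the 45 listed genes. It was 0.51 for the GO class structural constituent of ribosome and 0.52 for translation. In the GO class structural constituent of ribosome 5 of 95 genes (5.3%, against 4.52% of all measured genes) were higher and 0 lower, with a median of 0.34. In the GO class translation the counts were 5 and 0 of 89, with a median of 0.37. The KEGG class Ribosome had 8 higher and 4 lower of 97, with a median of 0.30. The 20 measured ribosome biogenesis genes had 0 past 2-fold and a median of 0.16.

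Annotation classes for sulfur and methionine synthesis also had called genes on the higher side alone, but a wider class that overlaps them did not. The sulfate adenylyltransferase PDE_01576, which activates sulfate, had 145 TPM in Rmtr23B-G, 35.8 in Dmtr23B-G and 56.0 in M12-G (2.59-fold, 2.18 to 3.08). Cysteine synthase (PDE_06487), which builds sulfide into cysteine, had 65.8, 33.1 and 26.2 TPM in that order (2.51-fold, 1.95 to 3.25). PDE_05175, annotated to methionine biosynthesis, had 115 TPM in Rmtr23B-G, 4.18 in Dmtr23B-G and 31.9 in M12-G (3.60-fold, 2.90 to 4.50). In the KEGG class Sulfur metabolism 5 of 21 genes were higher and 0 lower, with a median of 0.27. In the GO class methionine biosynthetic process, which shares 2 of those 5 genes, the counts were 4 and 0 of 10, with a median of 0.42, the joint highest of the 319 classes. In the KEGG class Cysteine and methionine metabolism 4 of 38 genes were higher and 2 lower, with a median of 0.06.

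Pathways of inositol phosphates and pentoses were among those with the lowest medians. In Inositol phosphate metabolism 10 of 28 genes were lower and 0 higher, with a median of -0.53. Inositol oxygenase (PDE_03787), which opens inositol to glucuronate, had 14.9 TPM in Rmtr23B-G, 36.1 in Dmtr23B-G and 86.0 in M12-G (5.78-fold lower, 4.27 to 7.97). The phytase PDE_05544, which frees phosphate from phytate, had 4.46, 31.3 and 16.7 TPM in that order (3.73-fold lower, 2.08 to 7.11). PDE_05544 met the minimum in M12-G alone and had to be called lower.

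In Pentose and glucuronate interconversions 8 of 34 genes were lower and 0 higher, with a median of -0.41, and in the Pentose phosphate pathway 4 of 24 were lower and 0 higher, with a median of -0.49. The sorbitol/xylulose reductase PDE_06586 had 48.5 TPM in Rmtr23B-G, 494 in Dmtr23B-G and 190 in M12-G (3.91-fold lower, 3.29 to 4.67), an overshoot. The ribulose-phosphate 3-epimerase PDE_06557, which belongs to both classes, had 25.0, 48.9 and 61.0 TPM in that order. The GO class carbohydrate binding had 7 lower and 0 higher of 15, with a median of -0.60, and 3 of these 7 were starch-degrading enzymes already named.

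The 4 listed conidial pigment genes, all low in the deletion strain, were within 2-fold of the parent. The regulator BrlA (PDE_00087), which starts conidiophore formation, had 89.3 TPM in Rmtr23B-G, 5.37 in Dmtr23B-G and 90.5 in M12-G. The pigment gene Ayg1 (PDE_09452) had 610, 32.5 and 752 TPM in that order, and scytalone dehydratase (PDE_04496) had 257, 11.9 and 186 TPM. In these bulk mycelia, fewer cells of a type and less RNA per cell cannot be told apart. PDE_09832, with its sporulation term, was higher at the values given above. None of the 5 measured hydrophobin and pigment genes was past 2-fold, and their median was 0.24. The fifth of them, the conidial hydrophobin RodA (PDE_00021), was not 2-fold lower in the deletion strain and lay just inside the limit at 812 TPM in Rmtr23B-G, 1388 in Dmtr23B-G and 1586 in M12-G. The pH regulator pacC (PDE_05163) was lower at 9.82, 43.3 and 39.0 TPM in that order (3.97-fold lower, 2.69 to 6.01). It was the 1 gene past 2-fold among 3 measured regulators of carbon use and development, whose median was -0.02.

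Stretches of neighbouring locus numbers whose measured genes were all low in the deletion strain differed in how they compared with the parent. These stretches were picked in earlier work on these data for their low values in Dmtr23B-G. From PDE_00789 to PDE_00811, which includes nonribosomal peptide synthase and prenyltransferase genes, 17 of 20 measured genes were within 2-fold of the parent, 2 were higher and 1 lower, with a median of 0.01. From PDE_09999 to PDE_10010, with a UbiA prenyltransferase (PDE_10005) at 312 TPM in Rmtr23B-G, 8.95 in Dmtr23B-G and 174 in M12-G, 10 of 12 were within 2-fold and 2 higher, with a median of 0.77.

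From PDE_09228 to PDE_09246 the complemented strain was mostly above the parent. There 11 of 17 genes were higher than the parent and 6 within 2-fold, with log2 differences from 0.32 to 2.19 and a median of 1.20. PDE_09236, without a product name, had 9747 TPM in Rmtr23B-G, 23.9 in Dmtr23B-G and 2368 in M12-G (4.12-fold, 4.02 to 4.22). The metallo-beta-lactamase domain protein PDE_09238 had 1226, 2.98 and 322 TPM in that order (3.81-fold, 3.56 to 4.08). The 17-beta-hydroxysteroid dehydrogenase PDE_09239 had 3159 TPM in Rmtr23B-G, 14.9 in Dmtr23B-G and 1319 in M12-G (2.40-fold, 2.31 to 2.48). The gene described as AFLR (PDE_09243), in Aspergillus the name of a pathway regulator of aflatoxin-type clusters, was within 2-fold at 28.6 TPM in Rmtr23B-G, 1.79 in Dmtr23B-G and 22.6 in M12-G.

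**Figure D4:**
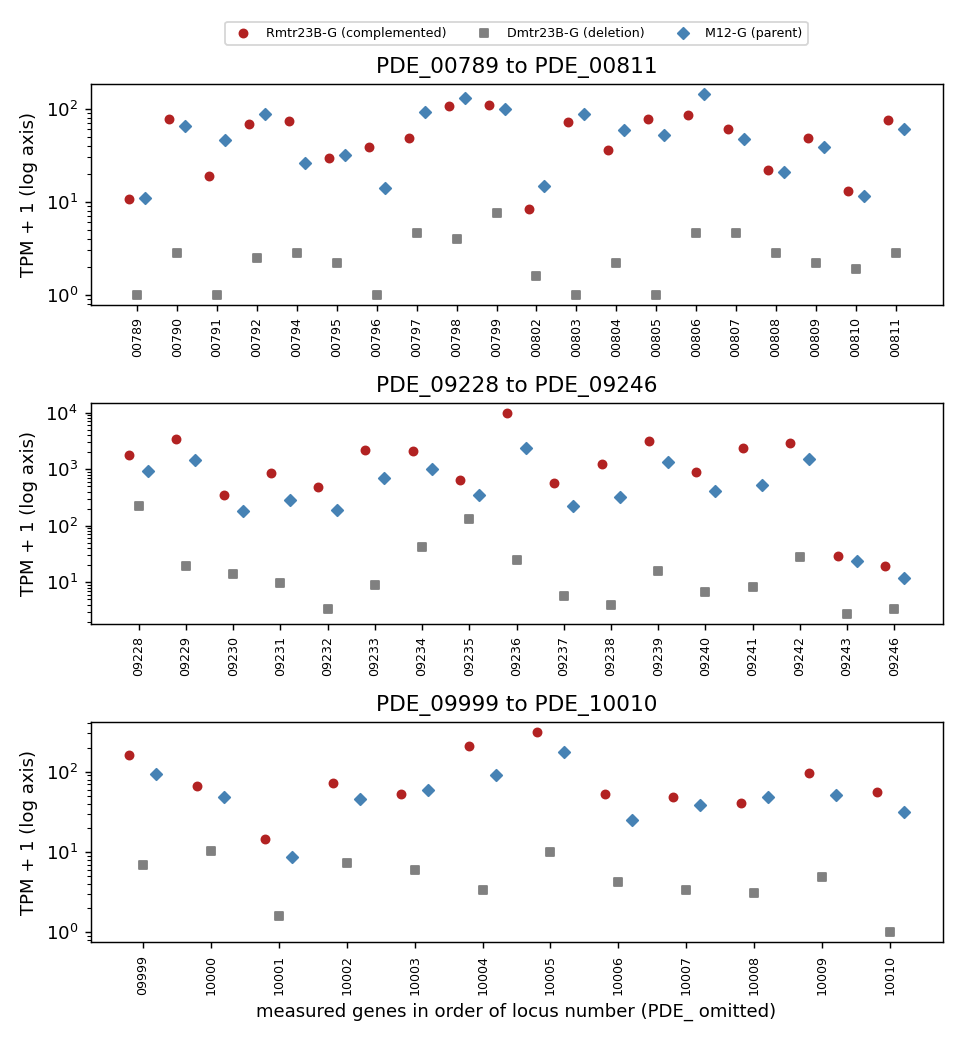
TPM + 1 (log axis) of measured genes in 3 stretches of successive locus numbers, in Rmtr23B-G (red circles), Dmtr23B-G (grey squares) and M12-G (blue diamonds). Red and blue points interleave in the top stretch (median log2 difference 0.01), red lies above blue for all 17 genes of the middle one (median 1.20) and for 10 of the 12 genes of the bottom one (median 0.77).

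Among the other lists, iron and metal uptake had 3 lower and 0 higher of 12, with a median of -0.48. The ferric-chelate reductase PDE_06091 had 137 TPM in Rmtr23B-G, 212 in Dmtr23B-G and 385 in M12-G, and the Ctr copper transporter PDE_05328 had 488, 1162 and 1168 TPM in that order (2.39-fold lower, 2.26 to 2.54). Both were past 2-fold in the complemented strain alone, but PDE_06091 was also lower in Dmtr23B-G than in M12-G by less than 2-fold. Histone H1 (PDE_01572) had 104, 288 and 243 TPM in that order, the 1 lower gene among 5 histones, whose median was -0.32.

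Of 21 methyltransferases 1 was higher and 4 lower, with a median of -0.18. LaeA (PDE_00584), the methyltransferase-like regulator of secondary metabolism, was within 2-fold at 34.8 TPM in Rmtr23B-G, 22.1 in Dmtr23B-G and 21.1 in M12-G. Ergosterol synthesis had 1 higher and 2 lower of 13, with a median of -0.27, the proteasome 0 higher and 1 lower of 19, with a median of -0.17, and the secretory chaperones of the endoplasmic reticulum 0 of 11 past 2-fold, with a median of -0.13. Peroxisome and beta-oxidation had 1 higher and 2 lower of 28, with a median of -0.08. Of the 15 cytochrome P450 genes, 10 of which were low in the deletion strain, 1 was lower in the complemented strain and 0 higher, with a median of -0.12. That gene, PDE_02656, is an overshoot at 30.4 TPM in Rmtr23B-G, 458 in Dmtr23B-G and 103 in M12-G. Among 8 backbone enzymes of secondary metabolism 7 were low in the deletion strain and 1 of the 8, the NRPS-like enzyme PDE_04438, was past 2-fold, at 140, 3.28 and 46.1 TPM in that order. The median of the 8 was 0.10.

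**Figure D5:**
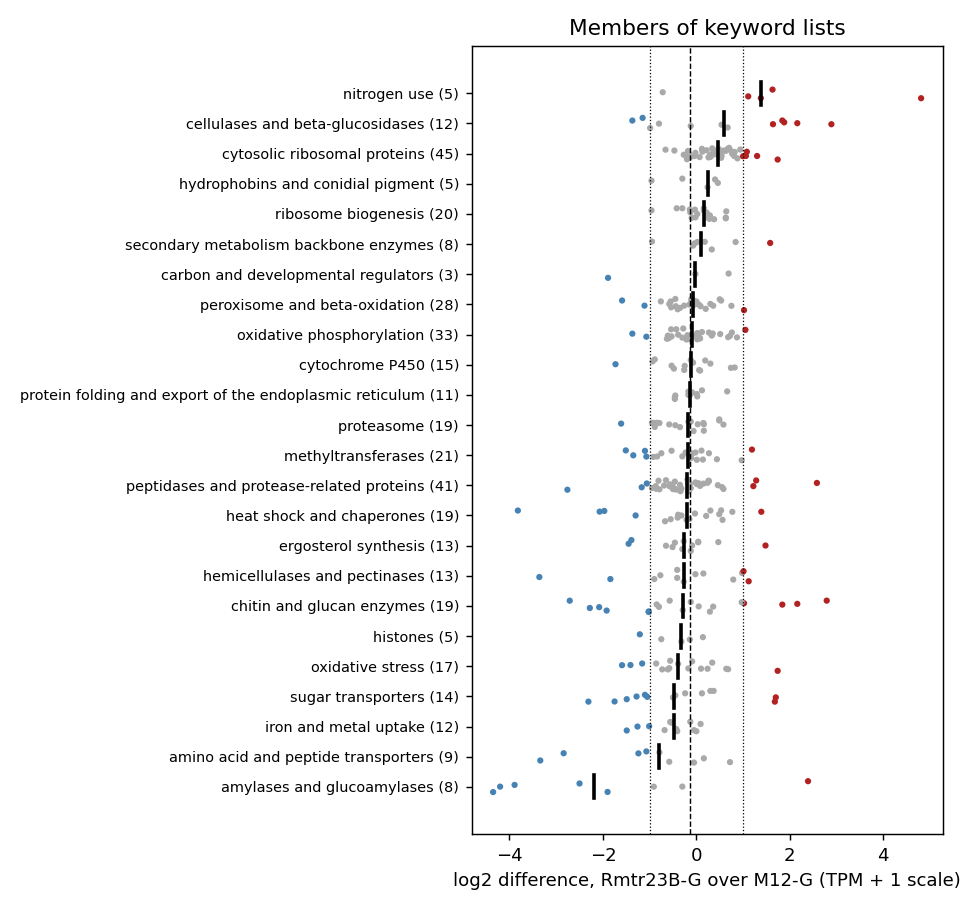
Log2 difference of Rmtr23B-G over M12-G (TPM + 1 scale) for the measured members of 24 keyword lists, with the number of members in brackets, black bars at list medians, a dashed line at the all-gene median of -0.14 and dotted lines at 2-fold. Red and blue points are past 2-fold; the medians run from 1.38 for nitrogen use to -2.20 for amylases and glucoamylases.

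Across the annotation, 319 GO Function, GO Process and KEGG classes had at least 10 measured genes. Their medians ran from -0.68 to 0.42, so none reached 2-fold, and 245 lay below 0 and 68 above it. These counts were made against 0 and with library totals alone, where the median of all measured genes was itself -0.14. That all-gene median was -0.21 with scaling to assigned tags and 0.03 with median-ratio scaling. The split of the classes around 0 is therefore to be read against the all-gene median, and it was not recounted under other scalings. In 33 classes no gene was past 2-fold, 131 held at least 1 incomplete gene and 124 at least 1 overshooting gene. Over all 5226 measured genes, 24 and 135 were incomplete (higher and lower in Dmtr23B-G), and 71 and 86 overshot. The classes with the most of both were mostly the largest ones, so their counts are to be read against their size. Metabolic pathways had 37 incomplete and 38 overshooting of 1007 genes, Biosynthesis of secondary metabolites 20 and 19 of 399, and Microbial metabolism in diverse environments 16 and 15 of 358. The GO classes oxidation-reduction process, with 14 and 14 of 336, and transmembrane transport, with 11 and 13 of 132, came next. Transmembrane transport was much smaller than the others, so its counts were the largest for class size among these.

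Within transmembrane transport 32 genes were lower (24.2%) and 8 higher, with a median of -0.29, against 10.8% and 4.52% of all measured genes. At the other end, the EBP domain protein PDE_00418 had 47 tags in Rmtr23B-G and 0 in both Dmtr23B-G and M12-G. The exact lower limit of its ratio to M12-G was 12.2. At 14.0 TPM in Rmtr23B-G it met the 10 TPM minimum through that library alone and had to be called higher. Threonine aldolase (PDE_08440), which splits threonine to glycine, had 16.4 TPM in Rmtr23B-G, 84.2 in Dmtr23B-G and 124 in M12-G (7.55-fold lower, 5.69 to 10.2). It was past 2-fold in the complemented strain alone.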

How the data were processed

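The table of the series gives tag counts, not normalised, and TPM values as deposited by the authors, with library totals per the file headers. Recomputed TPM (tags per 1000000 tags of the library) differed from the deposited values by at most 0.005. Mapper, genome build, annotation version, strand use and the treatment of shared tags are not given in the sources here, so members of gene families and overlapping genes are uncertain. The cellulose and wheat bran columns did not follow the identifiers (ribosomal constituents at a median percentile of 48.4 in M12-CW) and were not used by gene. A RefSeq table of strain HP7-1 matched 0 identifiers, so no positions are given. No molecular identifiers are mentioned in the labels' protocols.

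Log2 differences used a pseudocount of 1 TPM. Intervals are exact (Clopper-Pearson, 95%), with a floor of 3 tags for a count of 0. Calculations used Python 3.11.15, numpy 2.4.6, pandas 2.3.3 and scipy 1.17.1, and TMM factors came from edgeR 4.0.16 in R 4.3.3. The size rule was tested on simulated data. Gene names come from the product descriptions, present for 1701 of 5226 measured genes.

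The comparison, gene lists and stretches of genes were chosen with earlier results of these data known, and the patterns of the 24 keyword lists were corrected after values were seen, so no list was tested. Named by rule were the 8 most higher and 8 most lower described genes with intervals beyond 2-fold, the 8 highest TPM, the 4 highest-TPM described genes of each restoration group, and the most changed described gene of each class described (the 6 highest and 6 lowest medians per annotation column, the 5 classes with most incomplete or overshooting genes, and the lists). Other genes named were chosen after their values were seen. Alternatives were scaling, pseudocount, minimum TPM, a 3-fold rule and an interval rule.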

Additional observations from a re-analysis of the deposited data

How the results depend on the processing

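Of 108 values (9 results under 12 alternatives), 61 stayed within 1.5 times the reported count or close to the reported median. The other 47 are given here, and the cause of none of them was tested beyond what the alternative itself changes. Scaling to assigned tags gave an all-gene median of -0.21. It was 0.03 without PDE_09832, with median-ratio scaling and with quantile normalisation, and 0.01 with TMM. Overshoots among genes higher in Dmtr23B-G, 71 as reported, were 39 without PDE_09832, 35 with median-ratio scaling, 38 with TMM and 44 with quantile normalisation. Genes higher in Rmtr23B-G alone, 126 as reported, were 196, 199 and 198 without PDE_09832, with median-ratio scaling and with quantile normalisation. With a pseudocount of 5 TPM, 12 genes higher in Dmtr23B-G were incomplete and 42 overshot. The other counts moved with the number of genes tested or the strictness of the rule. Without a minimum, 441 genes were higher and 895 lower, the median was -0.10, 88 and 215 genes were incomplete (higher and lower in Dmtr23B-G), 112 of those higher overshot, and 253 were higher and 568 lower in Rmtr23B-G alone. A minimum of 5 TPM gave 41 incomplete genes among those higher in Dmtr23B-G. A minimum of 50 TPM gave 105 higher, 258 lower, a median of -0.17, 10 and 74 incomplete, 32 and 52 overshooting, and 43 higher and 152 lower in Rmtr23B-G alone. A 3-fold rule gave 89 higher, 176 lower, and 52 higher and 126 lower in Rmtr23B-G alone. It gave 8 and 38 incomplete and 12 and 29 overshooting, among 135 genes higher and 396 lower in Dmtr23B-G. Intervals wholly beyond 2-fold gave 125 higher, 258 lower, 12 and 78 incomplete, 35 overshooting among genes higher in Dmtr23B-G, and 50 higher and 145 lower in Rmtr23B-G alone.

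Of the genes picked by the naming rule, 10 were within 2-fold under at least 1 scaling: PDE_09832, PDE_09234, PDE_00629, PDE_09083 and PDE_03114 with scaling to assigned tags, PDE_09832 and PDE_07927 with quantile normalisation, and PDE_01335, PDE_04618, PDE_09400 and PDE_00009 without the tags of PDE_09832, with median-ratio scaling, TMM and quantile normalisation alike. List medians that changed sign were those of carbon and developmental regulators, chitin and glucan enzymes, cytochrome P450, oxidative phosphorylation, peroxisome and secretory chaperones. The size and interval rules have no counterpart for class medians or single genes and were not run there, nor was the minimum for single genes. No paired analysis was possible because each strain has 1 library in glucose. Depth limits genes near 10 TPM: PDE_00447, with 34 tags in Rmtr23B-G and 30 in M12-G, had a ratio of 1.13 with an interval of 0.673 to 1.92.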

Other observations

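Further genes, picked after their values were seen and belonging to no list, differed from the parent. Phytoene synthase (PDE_08071), the first enzyme of carotenoid synthesis, had 516 TPM in Rmtr23B-G, 150 in Dmtr23B-G and 230 in M12-G. Phytoene dehydrogenase (PDE_08070), the next locus number, had 237 TPM in Rmtr23B-G, 54.9 in Dmtr23B-G and 62.8 in M12-G. Glucose oxidase (PDE_01413), which turns glucose to gluconolactone, had 78.9 TPM in Rmtr23B-G, 0.600 in Dmtr23B-G and 12.2 in M12-G. Elongation factor 1-alpha (PDE_09012), which brings aminoacyl-tRNA to the ribosome, was lower at 330 TPM in Rmtr23B-G, 189 in Dmtr23B-G and 771 in M12-G. It is 1 gene, and other elongation factors did not follow it. In the GO class translation elongation factor activity 1 of 11 genes was higher and 0 lower, with a median of 0.02.

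Called genes also formed runs in the order of measured genes by locus number, outside the stretches described. A run needed at least 4 genes called in the same direction, with at most 1 other measured gene between. The high shares of called genes in a run thus follow from the search, and no run was tested. Some of the runs found are given here, and locus numbers between their genes can be missing. From PDE_04438 to PDE_04457 6 of 8 measured genes were higher, with a median log2 difference of 1.49, and they include the NRPS-like enzyme and the maltase-like PDE_04454. From PDE_01212 to PDE_01218 5 of 6 measured genes were lower (median -2.05), and from PDE_03310 to PDE_03319 4 of 4 (median -2.01), none with a product name in the table.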
